A study of Mus musculus with 16 samples.

Results

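Gm45321, Gm45323 and C130073E24Rik are 3 long intergenic noncoding RNA genes that lie within about 1 Mb of each other on mouse chromosome 8. They were taken by symbol from the 32285 genes listed for each library. They were chosen by their values in these libraries: they fell in Tau+ against Tau- granule neurons of the dentate gyrus in the libraries labelled Ch25h-/-, and they led a cluster of inhibitory neurons, so neither of those patterns is tested here. In GENCODE M21 (GRCm38), Gm45321 (ENSMUSG00000109907) spans chr8:49818937-49949006 on the plus strand with 3 annotated transcripts, Gm45323 (ENSMUSG00000110375) spans chr8:49959483-50013384 on the minus strand with 1, and C130073E24Rik (ENSMUSG00000110246) spans chr8:50743291-50916997 on the minus strand with 2. The files hold 10 genes annotated between 49 and 51 Mb of that chromosome, all of them lincRNAs. No function of these 3 RNAs is assumed here.

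Long noncoding RNAs are transcripts that carry no long open reading frame. Many are kept in the nucleus and are made in a narrower range of cell types than messenger RNAs, and a nuclear preparation recovers them well. Inhibitory neurons of the hippocampus release GABA, which they make with the decarboxylases Gad1 and Gad2 and load into vesicles with the transporter Slc32a1. They fall into subtypes named for what they express: Pvalb cells target the cell body and axon of principal neurons, Sst cells target dendrites, Cck cells with Sncg form a second class of basket cells, Vip cells often target other interneurons, and Lamp5 cells include neurogliaform cells.

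Nuclei came from the hippocampus of female mice aged 9 months, and 16 libraries were sequenced, 4 in each of 4 labelled groups. The groups cross 2 genotypes at Ch25h (+/+ and -/-) with 2 tau states (Tau- and Tau+), and a group is written here as, for example, Ch25h+/+ Tau-. Ch25h encodes cholesterol 25-hydroxylase. The series title links that enzyme to innate immune signalling and tau pathology, and the labels give neither the tau transgene's line nor its promoter, nor whether a library pools animals. Replicates are numbered in deposit order, so a number pairs no samples, and the p-values measure only the spread between these libraries. Ch25h itself did not separate the labels: it had 8 to 36 unique molecular identifiers (UMIs) per library, with 0.201 ± 0.0400 (SD, n = 4) CPM (the gene's UMIs scaled to a common total of UMIs in the same nuclei) in Ch25h+/+ Tau- and 0.358 ± 0.106 in Ch25h-/- Tau-. The annotated gene Gm26902, which overlaps Ch25h, had 0.606 to 1.01 CPM in the 8 libraries labelled Ch25h+/+ and 0.188 to 0.417 in the 8 labelled Ch25h-/-. The Ch25h-/- groups are therefore called by their label throughout.

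Each library gave 8130 to 11654 nuclei with a median of 3846 to 6508 UMIs, of which 7601 to 10567 were kept after doublets were removed. Pairs of libraries shared at most 40 barcodes among the nuclei before that step (0.465%). Cell classes were built by clustering without the 3 genes, and each carries its name from marker genes, so every class below is meant as "like" that class. Other lincRNAs of the same region were not barred from the clustering, so the clusters may not be independent of the 3 genes. Inhibitory nuclei had 315 ± 32.1 CPM of Gad2 (SD, n = 16) against 1.83 ± 0.512 in all other nuclei, granule nuclei had 274 ± 21 of the granule neuron factor Prox1 against 20.2 ± 3.99, and Sst nuclei had 626 ± 129 of Sst against 33.6 ± 13.1. In Cck Sncg nuclei the cannabinoid receptor gene Cnr1 had 1194 ± 229 CPM against 110 ± 22.2, Cck had 264 ± 159 against 28.1 ± 15.1, and Sncg itself was low, at 3.39 ± 1.76 against 0.443 ± 0.289.

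The kit reads RNA from the poly(A) end, so the annotated 3' ends of the transcripts are shown first. Each is the last 120 bases of a transcript, 5' to 3', read from the GENCODE M21 transcript sequences (GRCm38), with the polyadenylation hexamers AATAAA and ATTAAA in capitals. The 1st is the end of Gm45321-202, chr8:49947952-49948071, plus strand. The 2nd is the end of Gm45323-201, the only transcript of that gene, chr8:49959483-49959602, minus strand. The 3rd is the end of C130073E24Rik-201, chr8:50743291-50743410, minus strand.
Gm45321-202: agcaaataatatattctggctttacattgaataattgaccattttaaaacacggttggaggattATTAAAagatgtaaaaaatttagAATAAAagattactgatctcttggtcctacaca
Gm45323-201: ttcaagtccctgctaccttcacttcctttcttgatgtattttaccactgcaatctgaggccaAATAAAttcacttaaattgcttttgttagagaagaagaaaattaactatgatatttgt
C130073E24Rik-201: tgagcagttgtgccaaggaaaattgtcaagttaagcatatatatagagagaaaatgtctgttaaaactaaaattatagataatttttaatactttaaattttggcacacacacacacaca
Gm45321-202 held both hexamers, with 27 bases between AATAAA and the end. The same window of the other 2 transcripts of Gm45321, among them Gm45321-201, which ends at the end of the gene, held neither. Gm45323-201 held 1 AATAAA, with 52 bases after it. The window of C130073E24Rik-201 held neither string and ended in a run of CA repeats, and that of C130073E24Rik-202 held neither as well. Searched on the transcript strand alone, 1 or both hexamers stood in that window in 38.2% of 137364 annotated transcripts and in 42.8% of 9091 lincRNA transcripts. The annotated spliced lengths ran from 413 bases (Gm45323-201) to 14112 bases (C130073E24Rik-202), and reads from introns may be included in the counts, so the 3 genes are compared below by pattern and not by level.

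All 3 RNAs were highest in inhibitory neurons of the Cck Sncg subtype, where 80.4 to 93.3% of nuclei held each of them. Among the classes present in every library they were lowest in oligodendrocytes, microglia and CA pyramidal neurons. Gm45321 had 1310 ± 337 CPM (SD over 16 libraries) in Cck Sncg nuclei, 681 ± 160 in Sst, 315 ± 53.0 in Lamp5, 251 ± 64.5 in Vip and 159 ± 55.9 in Pvalb nuclei. Gm45323 kept that order, with 660 ± 161, 345 ± 72.0, 175 ± 28.9, 136 ± 51.3 and 76.4 ± 24.2 CPM. C130073E24Rik kept it as well, with 2052 ± 513, 1092 ± 238, 535 ± 104, 410 ± 114 and 252 ± 83.8 CPM. Over all inhibitory nuclei the means were 505 ± 118 CPM for Gm45321, 258 ± 52.4 for Gm45323 and 806 ± 195 for C130073E24Rik. The order is a description, since the clusters were made from the same nuclei.

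Taken over all 16 libraries, the ranges of neighbours in this order overlapped. For Gm45321, the Cck Sncg range of 811 to 2029 CPM ran into the Sst range of 405 to 1066, Sst into Lamp5 (247 to 424), Lamp5 into Vip (153 to 404), and Vip into Pvalb (85.9 to 237). The first 2 overlaps arose between groups. Within each of the 4 groups, the lowest Cck Sncg library was above the highest Sst library, and the lowest Sst library above the highest Lamp5 library. So Gm45321 was higher in Cck Sncg than in Sst nuclei, and in Sst than in Lamp5 nuclei, in each of the 16 libraries. Subtypes 2 or more steps apart in the order did not overlap for Gm45321. The lowest Cck Sncg library was above the highest Lamp5 library. The lowest Sst library (404.9 CPM) was barely above the highest Vip library (404.2), and the lowest Lamp5 library (247) above the highest Pvalb library (237). In a septal or thalamic inhibitory cluster group, present with 20 or more nuclei in 7 libraries, Gm45321 had 123 ± 53.4 CPM.

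**Figure D1:**
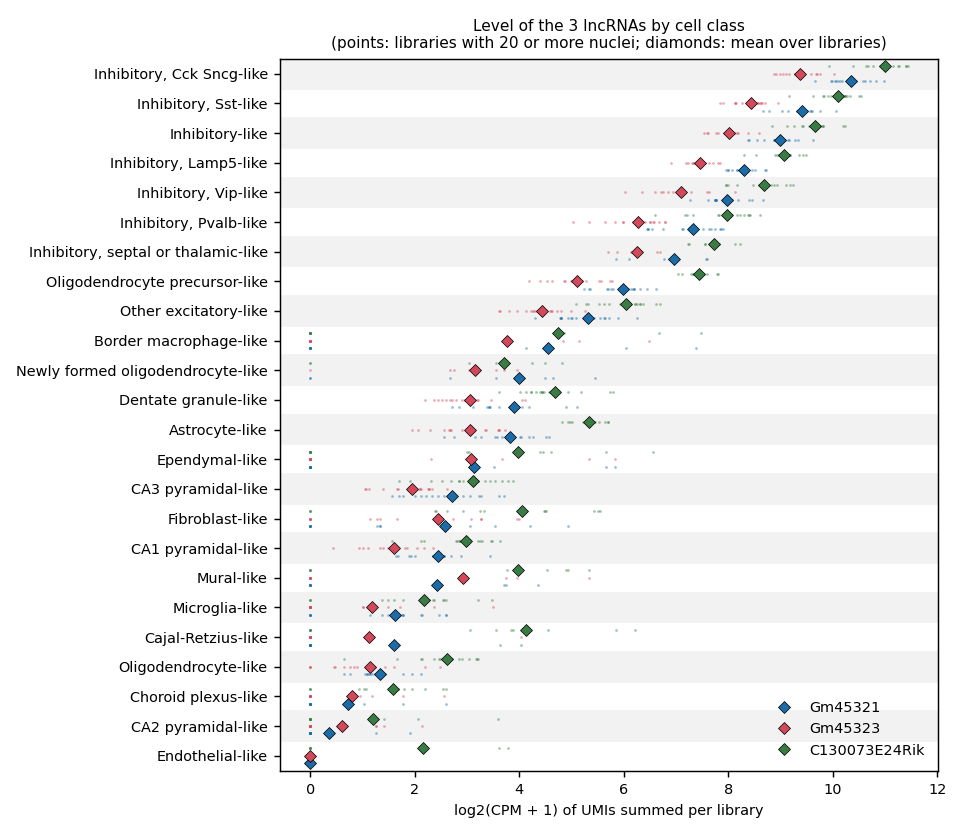
Level of each of the 3 RNAs by cell class, as log2(CPM + 1) of the UMIs summed per library (horizontal axis), with a small point for each library that holds 20 or more nuclei of the class and a diamond for the mean over libraries. The whole inhibitory class and its 5 named hippocampal subtypes sit at the top for all 3 genes, and oligodendrocyte precursors lie above granule neurons.

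Outside the inhibitory class the RNAs were not absent. Oligodendrocyte precursors, the dividing glia that give rise to myelinating cells, had 62.6 ± 17.3 CPM of Gm45321, 33.5 ± 11.0 of Gm45323 and 174 ± 24.4 of C130073E24Rik. Astrocytes had 13.2 ± 5.2, 7.27 ± 3.08 and 39.5 ± 7.45 CPM. Granule neurons had 13.9 ± 7.61, 7.32 ± 3.76 and 24.6 ± 12.5 CPM, and CA pyramidal neurons 4.73 ± 2.16, 2.31 ± 0.904 and 6.90 ± 2.36 CPM. Oligodendrocytes were at 1.52 ± 0.748, 1.20 ± 1.29 and 5.17 ± 2.19 CPM, and microglia at 2.07 ± 1.82, 1.28 ± 2.66 and 3.54 ± 2.82 CPM. In oligodendrocyte precursors, astrocytes and oligodendrocytes the values of C130073E24Rik stood higher against its inhibitory value than those of the other 2 genes did, a difference that was not tested.

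The label of inhibitory neurons held only in part. Among 46 clusters outside the inhibitory class with at most 50% doublets, 5 reached 100 CPM of Gm45321. The highest of them was a cluster of 593 excitatory nuclei led by Ccn2, which encodes a secreted matricellular protein: it had 585 CPM of Gm45321, 308 of Gm45323 and 952 of C130073E24Rik, with Gad2 at 0.517 CPM. A cluster of 468 nuclei led by the transcription factor Ebf2 had 236 CPM. It and a cluster of 52 nuclei at 335 CPM were placed among other excitatory neurons on 4 of 14 markers each, with none among their 10 leading genes; the vesicular glutamate transporter genes Slc17a7 and Slc17a6 were at 98.7 and 222 CPM in the first and 239 and 129 in the second. For the latter, before doublet removal 77.6% of its nuclei came from 1 library and it was found in 9 of 16, and the leading genes included Chat and Slc5a7, which serve acetylcholine synthesis and choline uptake. The remaining 2 of these clusters were unnamed and had 115 CPM (39.7% doublets before removal) and 106 CPM. The other excitatory class as a whole had 38.8 ± 15 CPM of Gm45321.

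Counted by nuclei, 51.3% of 10738 inhibitory nuclei had a UMI of Gm45321, 43.5% of Gm45323 and 60.5% of C130073E24Rik, at a median depth of 7454 UMIs. Thinned to 2000 UMIs, with the 131 shallower nuclei left out, the shares were 34.4%, 24.7% and 42.7%. In Cck Sncg nuclei they were 88.7%, 80.4% and 93.3% (69.6%, 55.8% and 77.3% thinned). Oligodendrocytes, with a median of 1475 UMIs, gave 0.217%, 0.148% and 0.672%, and 0.193%, 0.147% and 0.804% after thinning, where only 4158 of 18907 nuclei were deep enough to enter. Granule neurons gave 5.69%, 3.77% and 11.2% at a median of 5761 UMIs, and 2.74%, 1.49% and 4.75% after thinning (285 left out), above the thinned oligodendrocyte shares for all 3. Single nuclei reached 158, 91 and 265 UMIs of Gm45321, Gm45323 and C130073E24Rik.

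In inhibitory neurons the RNAs were often found in the same nuclei. Of the inhibitory nuclei, 36.3% held all 3 and 32.8% held none. Gm45323 was read in 74.9% of the inhibitory nuclei with Gm45321 and in 10.4% of those without it. C130073E24Rik was read in 89.8% of those with Gm45321 and in 29.6% of those without. Depth differs between nuclei and raises every gene's chance of a read, and its part in these shares was not tested.

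Within the inhibitory class the 3 RNAs varied more than Gad1 and Gad2, which encode the enzymes of GABA synthesis. Across 25 clusters of inhibitory nuclei (those with at most 50% doublets, summed over libraries), Gm45321 ran from 18.1 to 1690 CPM, a 93.3-fold range. Gm45323 ran from 15.8 to 885 CPM, 55.9-fold, and C130073E24Rik from 43.0 to 2815 CPM, 65.4-fold. Gad1 spanned 4.07-fold (141 to 574 CPM) and Gad2 5.2-fold (144 to 751 CPM) over the same clusters. Both are among the markers that named the class. Of the genes near the 3 RNAs on the chromosome, Tenm3 spanned 22.1-fold, 4930555F03Rik 56.2-fold, Gm45341 62.8-fold and Gm2516 70.1-fold. The subtypes themselves were split: an Sst cluster of 533 nuclei with Qrfpr and Olfm3 among its leading genes had 1690 CPM of Gm45321, while an Sst cluster of 763 nuclei led by Pdyn, the prodynorphin gene, had 49.9.

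The same split was seen in Lamp5 and Pvalb nuclei. A Lamp5 cluster of 1006 nuclei with Vcan and Id2 among its leading genes had 468 CPM of Gm45321, and a Lamp5 cluster of 567 nuclei led by the receptor tyrosine kinase gene Kit had 18.1, the lowest of the 25. A Pvalb cluster of 284 nuclei had 581 CPM and the largest Pvalb cluster, of 1388 nuclei, 73.9. Both Cck Sncg clusters were high, at 1644 CPM (631 nuclei, led by Syt6) and 928 CPM (459 nuclei, with the vesicular glutamate transporter Slc17a8 among its leading genes). Gad2 was at 751 CPM in the Kit cluster, so a low value of the RNAs there went with a high value of the class marker.

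The proportion between the RNAs moved less than their level. Across all 25 clusters, the ratio of C130073E24Rik to Gm45321 counts ran from 1.41 to 2.38 and that of Gm45323 to Gm45321 from 0.265 to 0.875. The Kit cluster, with 72 UMIs of Gm45321, 63 of Gm45323 and 171 of C130073E24Rik, gave the highest value of both. In the 19 clusters with 500 or more UMIs of the 3 genes together, these ratios lay between 1.45 and 1.76 and between 0.424 and 0.603. They are ratios of counts, so they are compared across clusters and do not give relative abundance.

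**Figure D2:**
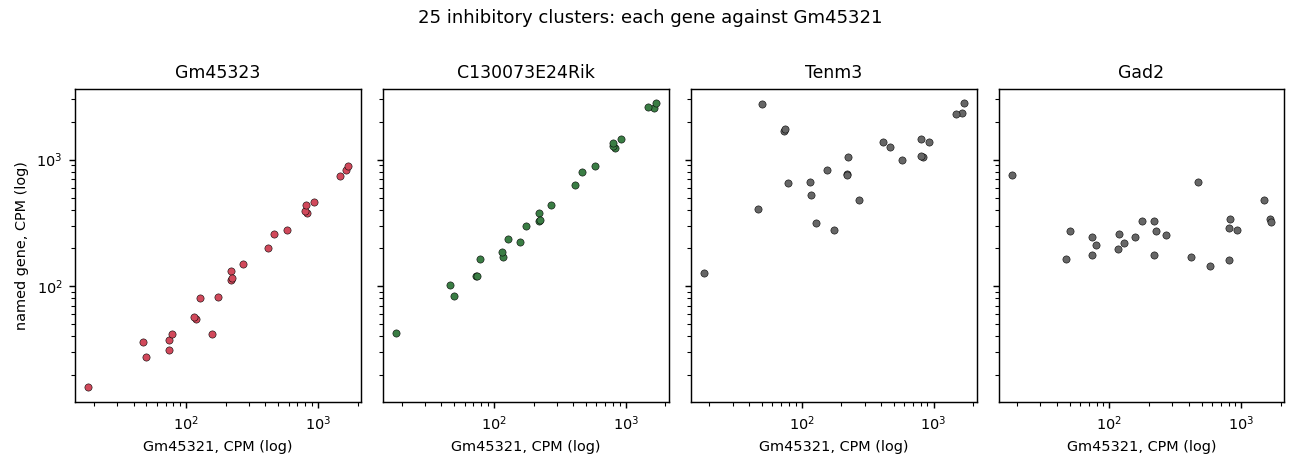
CPM of Gm45323, C130073E24Rik, Tenm3 and Gad2 (vertical axes, log scale) against CPM of Gm45321 (horizontal axes, log scale) in 25 clusters of inhibitory nuclei, 1 point a cluster, UMIs summed over libraries. The first 2 panels follow a line from 18.1 to 1690 CPM of Gm45321, and Gad2 stays within a 5.2-fold band.

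The genes with the most similar pattern were the neighbours on the chromosome. Over 23 classes and inhibitory subtypes, Pearson's r of mean log2(CPM + 1) was computed with 16464 other genes that reach 10 CPM in at least 1 class. For each of the 3 genes, the 5 nearest genes were the other 2 and the lincRNAs 4930555F03Rik, Gm2516 and Gm45341 from the same 2 Mb. The 6 inhibitory subtypes stand here in place of the whole class. Without them, over 17 classes, the 5 nearest were again these genes, but the lowest r among them was 0.815 for Gm45321, 0.861 for Gm45323 and 0.878 for C130073E24Rik, against 0.957, 0.971 and 0.971 with them; with a minimum of 1000 UMIs as well, 4 of the 5 nearest to C130073E24Rik came from this set. With all 23 and Gm45321, r was 0.993 for Gm45323, 0.981 for 4930555F03Rik, 0.979 for C130073E24Rik, 0.978 for Gm2516 and 0.957 for Gm45341. The median over all genes was -0.113, and over 33 other genes between 46 and 54 Mb it was -0.0270. The classes share libraries and depth, and r here describes likeness only. Gm2516 lies within the span of Gm45341 on the other strand, and the sources used here do not say whether strand was used in counting, so their reads may not be separate.

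Protein-coding genes around the cluster of lincRNAs followed less closely or not at all. Tenm3, a teneurin that guides synaptic partner choice, is the nearest on the side of lower coordinates and had r = 0.694 (rank 180). Dctd, a deoxycytidylate deaminase, had r = 0.321. On the other side, Aga, the lysosomal aspartylglucosaminidase, had r = -0.271, and the DNA glycosylase gene Neil3 had r = 0.292 but did not reach 10 CPM in any class. Of the other lincRNAs at 49 to 51 Mb, Gm45829 had r = 0.931 (rank 6) and Gm45455, with 149 UMIs in all and under 10 CPM in every class, r = 0.824; the remaining 2, Gm45830 and Gm45322, had 85 and 8 UMIs in all. Gad1 and Gad2 had r = 0.817 and 0.805.

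Among the 25 inhibitory clusters, where the class marker no longer varies much, Gm45321 kept r = 0.986 with Gm45323 and 0.996 with C130073E24Rik. It also kept 0.993 with both 4930555F03Rik and Gm2516, which were not barred from the genes that built the clusters. There r was 0.577 with Tenm3, 0.604 with Neil3, 0.430 with Aga, -0.298 with Dctd, 0.0730 with Gad2 and -0.141 with Gad1.

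**Figure D3:**
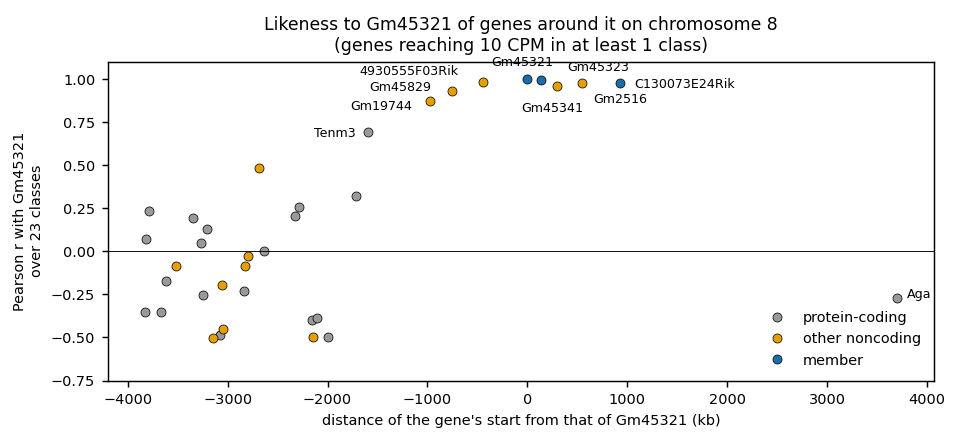
Pearson r with Gm45321 over 23 classes and subtypes (vertical axis) against the distance in kb of a gene's lower coordinate from that of Gm45321 (horizontal axis), 1 point a gene, for genes of chromosome 8 between 46 and 54 Mb that reach 10 CPM in a class. The lincRNAs near Gm45321 lie at 0.931 or higher, Tenm3 at 0.694 and Aga at -0.271.

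Because granule neurons hold few copies, values in RNA outside nuclei were read beside theirs. Barcodes with fewer than 100 UMIs, which hold mostly free RNA, had 49.7 ± 16.4 CPM of Gm45321 (26.0 to 89.2, n = 16), 16.3 ± 3.16 of Gm45323 and 56.0 ± 13.2 of C130073E24Rik, with 40.0 ± 11.5 of Gad2. These values depended on the cutoff: under 50 UMIs, Gm45321 was at 99.5 ± 25.9 CPM (60.1 to 139), Gm45323 at 21 ± 5.40 and C130073E24Rik at 65.3 ± 16.7, with Gad2 at 35.0 ± 7.82. The ratio of Gm45321 to Gad2 counts was 1.09 under 100 UMIs and 2.85 under 50 UMIs, 1.62 in inhibitory nuclei and 4.26 in Cck Sncg nuclei, against 12 in granule neurons, 8.20 in CA pyramidal neurons, 36.9 in other excitatory neurons and 16.3 in oligodendrocyte precursors. It was 4.49 in astrocytes, 0.404 in oligodendrocytes and 0.529 in microglia. Granule neurons had 1.25 ± 0.296 CPM of Gad2 and 1.29 ± 0.540 of Slc32a1, against 315 ± 32.1 and 80.3 ± 9.73 in inhibitory nuclei. Gad1 had 42.9 ± 3.86 CPM in granule neurons and is no marker against them. Across the 25 inhibitory clusters the ratio of Gm45321 to Gad2 ran from 0.0241 to 5.24. The part of free RNA and of other cells in the granule values was not tested.

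Few granule nuclei held many copies. Of 21689 granule nuclei, 16.9% had a UMI of any of the 3 genes, and the highest had 14. The 197 nuclei (0.908%) with 5 or more held 18.4% of the UMIs, and 2 of these 197 (1.02%) also had a UMI of Gad2, against 0.698% of the rest. The libraries were uneven. Ch25h-/- Tau- replicates 2 and 3 gave 33 and 55 of the 197, among them both with Gad2. There 28.8% and 34.3% of granule nuclei had a UMI of any of the 3 genes, against 10.0 to 21.9% in the other libraries.

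The question tested was whether Tau+ and Tau- libraries differ in mice labelled Ch25h+/+, a contrast that did not enter the choice of the genes. None of the 3 genes passed the test in any of 9 classes and subtypes: 0 of 27 tests had an adjusted p under 0.05 (edgeR's quasi-likelihood test on UMIs summed per library, Benjamini-Hochberg over all genes of the class), and 3 of 27 had an unadjusted p under 0.05. DESeq2 also called 0 of 27, with 3 at an unadjusted p under 0.05. Over all genes, edgeR gave an unadjusted p under 0.05 to 878 of 15078 in granule neurons, 583 of 14921 in inhibitory neurons and 397 of 9260 in Lamp5 nuclei. The 27 tests are not separate, since the subtypes are parts of the inhibitory class and the 3 genes vary together. Few genes of any kind were called in this contrast, 0.0265% of 15078 in granule neurons and 0.0201% of 14921 in inhibitory neurons. In other excitatory neurons the share was 0.025%, in CA pyramidal neurons 0.0185%, and in the subtypes 0.0236% (Cck Sncg), 0.0324% (Lamp5), 0.0193% (Pvalb), 0.0177% (Sst) and 0.0149% (Vip).

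In granule neurons, Gm45321 had 14.8, 13.7, 14 and 17.2 CPM in the 4 Ch25h+/+ Tau- libraries and 9.75, 9.76, 9.84 and 9.44 in the 4 Ch25h+/+ Tau+ libraries. Every Tau+ library was below every Tau- library, which held for 1 of the 3 genes and for 1.17% of all genes tested. The log2 fold change was -0.64 (SE 0.25, 95% interval -1.17 to -0.11, unadjusted p = 0.0215, edgeR adjusted p = 0.841). This SE, like the others, rests on a spread estimated over all 16 libraries, among them those that chose the genes. The SD of Gm45321 was 9.45 CPM in Ch25h-/- Tau- and 2.57 in Ch25h-/- Tau+. It was 1.62 in Ch25h+/+ Tau- and 0.177 in Ch25h+/+ Tau+. Gm45323 had 8.09, 6.51, 6.82 and 9.96 CPM in Tau- and 6.81, 5.39, 5.53 and 5.03 in Tau+, and the groups overlapped. Its log2 fold change was -0.47 (SE 0.27, interval -1.03 to 0.10, edgeR adjusted p = 0.877). C130073E24Rik had 20.6, 17.6, 16.4 and 20.6 CPM in Tau- and 29.5, 20.5, 18.9 and 20.1 in Tau+, so its libraries overlapped with a difference of the other sign. That log2 fold change was 0.23 (SE 0.24, interval -0.29 to 0.75, edgeR adjusted p = 0.929), and without Ch25h+/+ Tau+ replicate 1, the library at 29.5, it was 0.07.

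In inhibitory neurons, Gm45321 had 408, 640, 473 and 568 CPM in the Ch25h+/+ Tau- libraries and 468, 575, 333 and 487 in the Ch25h+/+ Tau+ libraries. The groups overlapped over most of their range, with a log2 fold change of -0.19 (SE 0.18, 95% interval -0.58 to 0.20). Gm45323 had 223, 278, 244 and 267 CPM in Tau- and 287, 272, 196 and 249 in Tau+, a log2 fold change of -0.04 (SE 0.13, interval -0.31 to 0.23). C130073E24Rik had 684, 827, 457 and 897 CPM in Tau- and 891, 903, 690 and 772 in Tau+, a log2 fold change of 0.16 (SE 0.19, interval -0.24 to 0.55). The edgeR adjusted p was 0.999 for all 3.

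Subtypes have different levels, so the size and makeup of the class are given as well. Cck Sncg nuclei, the subtype with the highest levels, made up 11.3 ± 2.55% of inhibitory nuclei in Ch25h+/+ Tau- and 9.64 ± 2.46% in Ch25h+/+ Tau+, and Pvalb nuclei, the lowest of the 5, 19.3 ± 2.35% and 13.4 ± 4.15%. Lamp5, Sst and Vip nuclei had 14.1, 22.0 and 10.5% in Tau- and 14.6, 23.5 and 9.58% in Tau+. The ranges of the groups overlapped for all 5 subtypes, and these shares were not tested. Ch25h+/+ Tau+ replicate 4 had the lowest share of the 16 libraries for all 5. Its Cck Sncg, Lamp5, Pvalb, Sst and Vip nuclei made up 6.57, 10.7, 9.64, 15.04 and 6.14% of inhibitory nuclei. The values of the whole class in that library therefore rest more on nuclei outside these subtypes, which limits the comparison of the class between groups. Inhibitory nuclei made up 9.22 ± 1.48% of named nuclei in Ch25h+/+ Tau- and 8.86 ± 3.1% in Ch25h+/+ Tau+ (difference -0.367 percentage points, two-sided exact permutation p = 0.886 over 70 arrangements, of which the smallest possible is 0.0286). With 16 inhibitory clusters given equal weight in every library, the Tau+ minus Tau- difference in log2 CPM was -0.21 for Gm45321, 0.01 for Gm45323 and 0.20 for C130073E24Rik (exact permutation p = 0.429, 0.971 and 0.429). Within replicates 1 and 2 and within 3 and 4, the difference in the inhibitory share was -2.80 and 2.06 percentage points, so the sign differed between them. The equal-weight differences were -0.22 and -0.19 for Gm45321, -0.02 and 0.04 for Gm45323, and -0.02 and 0.41 for C130073E24Rik. In the edgeR fit, a term for this split left the log2 fold change of Gm45321 at -0.63 in granule neurons and -0.19 in inhibitory neurons.

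Over the 5 subtypes the 15 log2 fold changes ran from -0.46 to 0.30. Both of the others with an unadjusted p under 0.05 came from Lamp5 nuclei. There Gm45323 had 223, 196, 207 and 183 CPM in Ch25h+/+ Tau- and 188, 118, 145 and 148 in Ch25h+/+ Tau+, and the groups overlapped. Its log2 fold change was -0.46 (SE 0.14, unadjusted p = 0.00226, edgeR adjusted p = 0.999). Gm45321 in the same nuclei had 366, 417, 318 and 303 CPM in Tau- and 310, 247, 269 and 286 in Tau+, with a log2 fold change of -0.37 (SE 0.14, edgeR adjusted p = 0.999). In CA pyramidal and other excitatory neurons the 6 log2 fold changes ran from -0.23 to 0.38.

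Free RNA in the Ch25h+/+ libraries was compared in the same way. The Tau+ minus Tau- difference in barcodes under 100 UMIs was 5.39 CPM for Gm45321 (two-sided exact permutation p = 0.743), -3.42 for Gm45323 (p = 0.171, adjusted over the 3 genes 0.514) and 9.63 for C130073E24Rik (p = 0.343, adjusted 0.514). Without Ch25h+/+ Tau+ replicate 2 the Gm45321 difference was -3.03 CPM, so 1 library set its sign. Replicates 1 and 2 stood apart from 3 and 4 in these barcodes, although the labels name no batch: in each of the 4 groups both had fewer UMIs there and more CPM of Gm45321 (41.4 and 89.2 against 26.0 and 39.3 in Ch25h+/+ Tau-, and 58.2 and 79.6 against 30.2 and 49.4 in Ch25h+/+ Tau+). The cutoff of 100 UMIs did not take like barcodes from them. At the same ranks below the nuclei, barcodes had a median of 89 to 136 UMIs in replicates 1 and 2. In replicates 3 and 4 that median was 66 to 82. The part of this in the split was not tested. The Gm45321 difference was 3.61 CPM within replicates 1 and 2 and 7.17 within 3 and 4, that of Gm45323 was -2.11 and -4.73, and that of C130073E24Rik was 16.2 and 3.02. With labels exchanged only within those pairs of replicate numbers, the exact permutation p was 0.667, 0.222 and 0.389, where 36 arrangements allow no p below 0.0556. The order of the replicates did not hold under 50 UMIs: Gm45321 was there at 61.8 and 75.7 CPM in replicates 1 and 2 of Ch25h-/- Tau+ against 117 and 96.3 in 3 and 4. The Ch25h+/+ tau differences under 50 UMIs were 3.26, -3.08 and 17.7 CPM.

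Of the 57 other genes between 46 and 54 Mb, 28 passed the low-count filter in granule neurons and 28 in inhibitory neurons, and none was called in the Ch25h+/+ tau contrast by edgeR (0 and 1 with an unadjusted p under 0.05) or by DESeq2. Their median log2 fold change was -0.09 in granule neurons, where that over all genes was -0.00, and -0.03 in inhibitory neurons, where it was 0.01. In granule neurons 4930555F03Rik was at -0.45 (SE 0.24) and Gm2516 at -0.44 (SE 0.27), near the value of Gm45323, while Gm45341 was at -0.12 (SE 0.32) and Tenm3 was at -0.04 (SE 0.15).

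The contrast that chose the genes is given as a description, with no test. In granule neurons of libraries labelled Ch25h-/-, Gm45321 had 15.6, 28.9, 33.5 and 14.7 CPM in Tau- and 7.71, 5.52, 11.3 and 6.20 in Tau+. Gm45323 had 8.27, 15.7, 16.3 and 5.91 CPM in Tau- and 3.59, 4.14, 4.71 and 4.47 in Tau+. C130073E24Rik had 35.3, 52.3, 54.2 and 22.7 CPM in Tau- and 11.2, 17.6, 21.1 and 15.1 in Tau+. No Tau+ library reached a Tau- library for any of the 3, as for 2.65% of all genes tested. Replicates 2 and 3 of Ch25h-/- Tau- stood above the other 2 libraries of that group for all 3 genes.

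The log2 fold changes there were -1.58 (SE 0.25) for Gm45321, -1.43 (SE 0.27) for Gm45323 and -1.32 (SE 0.24) for C130073E24Rik. Without both of those replicates they were -1.0, -0.75 and -0.84. The neighbouring lincRNAs outside the chosen 3 had log2 fold changes of -1.15 (4930555F03Rik), -1.16 (Gm2516) and -1.40 (Gm45341), while Tenm3 was at -0.58 and Aga at -0.19. Barcodes under 100 UMIs of these libraries had means of 50.9 CPM of Gm45321 in Tau- and 44.5 in Tau+. Gm45323 had 19.0 and 14.6, C130073E24Rik 66.9 and 47.2, and Gad2 47.4 and 34.8. The range of Gm45323 there was 15.9 to 21.7 in Tau- and 13.2 to 15.2 in Tau+, while the groups overlapped for Gm45321 and C130073E24Rik. How many of all genes had no overlap in these barcodes was not counted. The part of free RNA in the granule values was not tested.

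In inhibitory neurons of the libraries labelled Ch25h-/-, Gm45321 had 529, 544, 616 and 782 CPM in Tau- and 337, 372, 467 and 483 in Tau+. No Tau+ library reached a Tau- library for any of the 3 genes, as for 1.92% of all genes. The log2 fold changes were -0.57 (SE 0.18) for Gm45321, -0.61 (SE 0.13) for Gm45323 and -0.59 (SE 0.19) for C130073E24Rik, less than in granule neurons by value, a difference that was not tested. Across the subtypes the 15 values ran from -0.56 to 0.02 (SE 0.135 to 0.334), 14 of them negative. They are not separate values, since the 3 genes vary together. In other excitatory neurons of these libraries the values were 0.19 (SE 0.36), -0.02 (SE 0.33) and 0.27 (SE 0.35), and in CA pyramidal neurons -0.24 (SE 0.44), -0.06 (SE 0.37) and -0.32 (SE 0.35). There the Tau+ and Tau- libraries overlapped for each of the 3 genes, where 1.48% and 3.42% of all genes had every Tau+ library below every Tau- library. Cck Sncg nuclei made up 11.8 ± 1.65% of the inhibitory nuclei in Tau- (10.1 to 13.8%) and 8.5 ± 1.19% in Tau+ (6.92 to 9.57%) of that label. These shares did not overlap, while those of the Lamp5, Pvalb, Sst and Vip nuclei did. Their part in the values of the whole class was not tested. With equal weight for 16 inhibitory clusters, Gm45321 had a mean of 654 CPM in Tau- (592 to 740) and 556 in Tau+ (438 to 639). Gm45323 had 337 (303 to 369) and 270 (246 to 306). C130073E24Rik had 1101 (952 to 1331) and 915 (764 to 1006). All 3 means were lower in Tau+, and the groups overlapped for each gene.

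**Figure D4:**
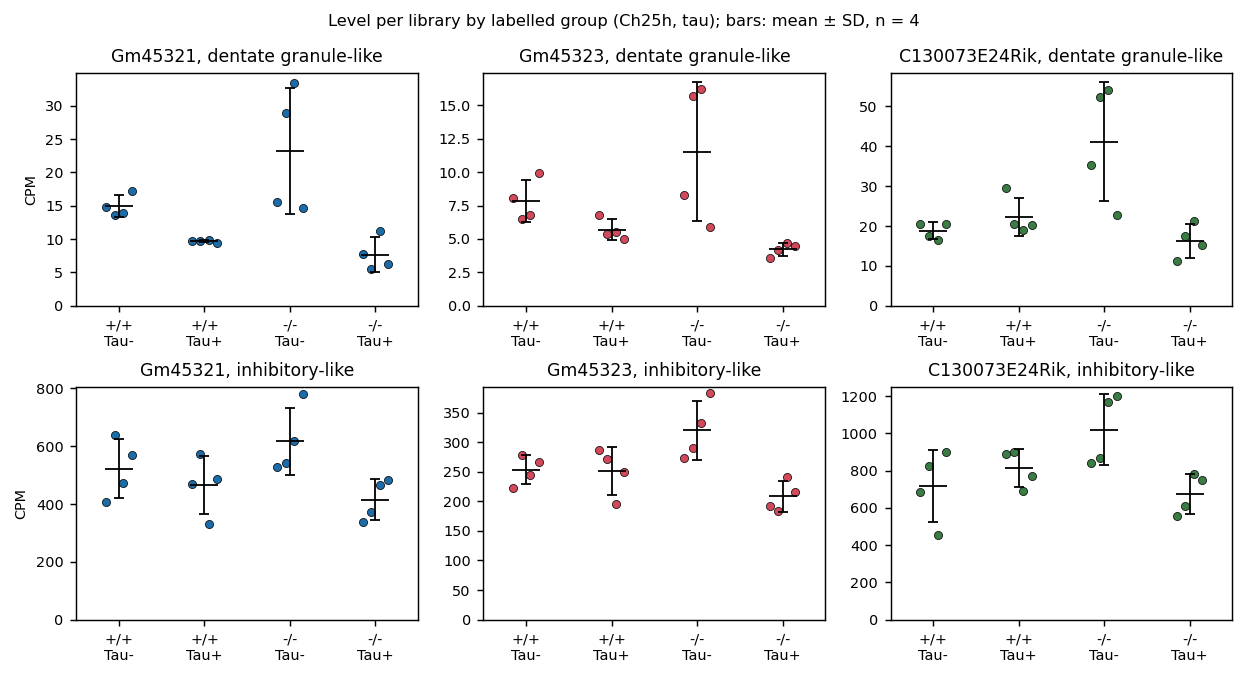
CPM of the 3 RNAs (vertical axes, from 0) in each of the 16 libraries by labelled group, for granule neurons (top) and inhibitory neurons (bottom); bars give the mean and SD of 4 libraries. In granule neurons the Ch25h-/- Tau- group is wide, from 14.7 to 33.5 CPM of Gm45321, and the 4 Ch25h+/+ Tau+ libraries lie between 9.44 and 9.84.

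Libraries labelled Ch25h-/- and Ch25h+/+ are set side by side, again without a test, since they share the libraries that chose the genes. In Tau- granule neurons the log2 differences (Ch25h-/- minus Ch25h+/+) were 0.62 (SE 0.23) for Gm45321, 0.54 (SE 0.25) for Gm45323 and 1.12 (SE 0.24) for C130073E24Rik. In Tau+ granule neurons they were -0.32 (SE 0.27), -0.42 (SE 0.29) and -0.44 (SE 0.25). Inhibitory neurons had 0.22, 0.32 and 0.49 in Tau- and -0.15, -0.26 and -0.26 in Tau+. The change of sign was not seen in every class: other excitatory neurons had -0.62, -0.41 and -0.22 in Tau- and -0.35, -0.46 and -0.13 in Tau+, and Pvalb nuclei had 0.44, 0.46 and 0.62 in Tau- and 0.68, 0.37 and 0.45 in Tau+.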

How the data were processed

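Libraries were made from nuclei with the 10x Genomics 3' kit, version 3.1, per the labels' protocols. The authors deposited raw UMI counts per gene and barcode for all barcodes. The file headers name Cell Ranger 4, while the submitters' processing notes name Cell Ranger 3.1.0, Seurat and the build mm10; the gene annotation and the handling of intronic reads are not given in the sources used here.

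Barcodes with 500 or more UMIs, 300 or more genes and at most 5% mitochondrial UMIs were kept (147873), and the 11045 with the highest scrublet scores (0.8% per 1000 nuclei) were removed as doublets, leaving 136828. The scrublet scores came from scanpy 1.11.5. Nuclei were clustered by the Leiden method in igraph 0.11.9, and inhibitory nuclei were clustered again. Both steps left out the 3 genes but not the other genes of their region. A cluster took a name when at least 3 markers of a class were 2-fold or more above other nuclei, unless over 50% of it was doublets, its UMIs were low, under 0.5 of the markers passed with none among its 10 leading genes (not required of other excitatory neurons, whose 14 markers come from several regions), or its leading genes held more markers of another class or went against the name (a list of genes per class, written after the clusters were seen). One granule cluster (93 nuclei) had all 8 granule markers but was led by Gabra6, a gene of cerebellar granule neurons that counted against another class; the closing section gives values without it. Of 81 clusters 40 were named, holding 119452 nuclei; names rebuilt in this way may differ from the study's own. CPM and counts were summed per library and class. edgeR 4.0.16 (R 4.3.3) fitted all 16 libraries with TMM scaling, filterByExpr, robust quasi-likelihood dispersion and 1 mean per group, in 9 sets of nuclei with at least 20 nuclei in every library; DESeq2 1.42.0 was an alternative. On simulated counts the fit recovered 50.7% of 1.5-fold, 76.1% of 2-fold and 93.9% of 4-fold changes in granule neurons. In inhibitory neurons it recovered 35.8, 55.2 and 92.4%, so small changes could go uncalled. False calls were 8 of 155 calls in granule and 11 of 133 in inhibitory neurons. A gene was called at an adjusted p under 0.05. Log2 fold changes are Tau+ minus Tau-.

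The 3 genes, the gene lists and the tests were chosen with earlier results of these data known. Beside the 3 genes, the text names the other noncoding genes at 49 to 51 Mb with at least 100 UMIs, the nearest protein-coding genes, the 5 genes nearest in pattern, and class markers. Gm19744, Gm45830, Gm45322 and the leading genes of single clusters were named after their values were seen. RefSeq promoters matched 0 of the 3 genes, so no promoter is shown.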

Additional observations from a re-analysis of the deposited data

Results flagged for a closer look

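Single libraries stood apart from the other 3 of their group in 4 of 64 groups of values examined, where chance gives about 1 in 20. C130073E24Rik in granule neurons was 29.5 CPM in 1 Ch25h+/+ Tau+ library (replicate 1) and 18.9 to 20.5 in the others. Gm45323 in barcodes under 100 UMIs was 13.2 CPM in 1 library labelled Ch25h-/- Tau+ and 15.1 to 15.2 in the others. Inhibitory nuclei made up 13.5% of named nuclei in 1 Ch25h+/+ Tau+ library and 7.01 to 7.69% in the others. They made up 9.22% in 1 library labelled Ch25h-/- Tau- and 8.95 to 8.99% in the others.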

How the results depend on the processing

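The count of 0 calls among 27 tests held in all 25 settings tried, with a smallest adjusted p of 0.508 (edgeR). The settings included other normalization, filters and nucleus cutoffs, a term for replicates 1 and 2 against 3 and 4, and DESeq2. They also included each library left out, and a fit of the 8 Ch25h+/+ libraries alone, whose spread takes nothing from the Ch25h-/- libraries. The tau difference of Gm45321 in Ch25h+/+ granule neurons ran from -0.68 to -0.56 with each library left out, that of Gm45323 from -0.56 to -0.33 and that of C130073E24Rik from 0.07 to 0.31. In inhibitory neurons the same ranges were -0.33 (without Ch25h+/+ Tau+ replicate 2) to -0.06 (without Ch25h+/+ Tau+ replicate 3) for Gm45321, -0.11 to 0.0632 for Gm45323 and -0.00595 to 0.29 for C130073E24Rik, so the latter 2 changed sign, and Gm45323 was at 0.00597 with equal weight of the clusters. In barcodes under 100 UMIs the difference of Gm45321 ran from -3.03 to 18.8 CPM, and that in the share of inhibitory nuclei from -1.91 to 0.272 percentage points; the cause was not tested. The contrast that chose the genes moved to -1.0, -0.75 and -0.84 in granule neurons without Ch25h-/- Tau- replicates 2 and 3, a setting added after seeing the data, as were exchange of labels within replicates 1 and 2 and within 3 and 4, equal weight of inhibitory clusters, a fit of the 8 Ch25h-/- libraries alone and a ranking without inhibitory subtypes. No paired analysis was possible because the labels give no replicate numbers. A further cutoff by barcode rank removed 0 nuclei. Without the granule cluster led by Gabra6, a setting added likewise, granule levels were 13.8, 7.33 and 24.6 CPM and the Ch25h+/+ tau differences -0.64, -0.48 and 0.23. Granule neurons held 2048, 1060 and 3595 UMIs of Gm45321, Gm45323 and C130073E24Rik over the 16 libraries.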

Other observations

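In inhibitory nuclei of Ch25h+/+ Tau- replicate 3, C130073E24Rik had 457 CPM, the lowest of the 16 libraries, while Gm45321 had 473 CPM there, inside its range in the other libraries. Gm19744, a processed transcript at 48.8 Mb that overlaps the start of Tenm3, had r = 0.871 with Gm45321 over the 23 classes (rank 10). Its log2 difference between Tau+ and Tau- granule neurons of the libraries labelled Ch25h-/- was -1.39.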
